A study of Rattus norvegicus with 8 samples.

Results

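Zbtb16, Fkbp4 and Per3 are 3 genes linked to glucocorticoid signalling that the authors listed as changed in the adult rat medial prefrontal cortex after fluoxetine in the juvenile period. They were chosen as the listed probes that carry these names, by the name in the deposited table or through the gene ID. Each gene had 1 such probe, so 3 of the 582 listed probes and of the 15207 probes with a value on the arrays are described here. The JFLX group holds 4 samples from rats dosed with 10 mg/kg fluoxetine, an antidepressant that blocks serotonin reuptake, between postnatal days 28 and 48. The control group, labelled CONTROL or JVeh, holds 4 samples from rats given vehicle, a 5% sucrose solution, over the same days. Both groups were sampled at 6 months of age, RNA came from the whole medial prefrontal cortex, and each sample was hybridised with Cy3 to a custom Agilent rat array. No source used here gives the strain, the sex or the hour of tissue collection, or says whether samples are separate animals. In 3 control samples, replicates 2 to 4, the free-text description mentions fluoxetine while the title and source name say control, and the titles were followed.

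Glucocorticoids act through the glucocorticoid receptor, which is held in a complex with the chaperone Hsp90 until it binds hormone and moves to the nucleus, where it switches target genes on and off. Fkbp4 encodes FKBP52, an immunophilin of that complex that favours hormone binding and nuclear transport of the receptor and is opposed by its relative Fkbp5. Zbtb16 encodes PLZF, a transcription factor with a BTB domain and zinc fingers whose transcript is induced by glucocorticoids in several tissues. Per3 belongs to the Period family of the circadian clock, whose proteins repress the activators Clock and Bmal1, and glucocorticoids set the phase of clocks in many tissues.

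The 3 probes are shown because every value below was measured with them, and they are printed in lower case throughout, 5′ to 3′, as deposited.
Fkbp4 probe: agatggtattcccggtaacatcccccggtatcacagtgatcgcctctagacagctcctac
Zbtb16 probe: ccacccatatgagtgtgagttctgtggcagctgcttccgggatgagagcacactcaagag
Per3 probe: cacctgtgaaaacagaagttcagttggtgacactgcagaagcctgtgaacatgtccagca
Each has 60 bases, with a GC content of 53.3% for Fkbp4, 55.0% for Zbtb16 and 48.3% for Per3. The deposited table places the Fkbp4 probe (gene ID 260321) on chromosome 4 from 165693728 to 165693787 and the Zbtb16 probe (gene ID 353227) on chromosome 8 from 51953559 to 51953618. The Per3 probe (gene ID 78962) is listed on chromosome 5 from 168163027 to 168163035, an interval of 9 bases that is shorter than the probe. All 3 are listed in descending order of position, and no source used here names the genome build or the exon each probe lies in.

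The members were chosen from the JFLX against control contrast itself, so their differences are given as a description. Adjusted p-values given for them further on come from that same contrast and are not independent support. The authors listed a probe as higher or lower where the JFLX mean reached 0.4 or -0.4 on the log2 scale with a p of at most 0.05, and it was flagged as detected on at least 3 or 4 arrays of the JFLX group for higher probes or of the control group for lower probes. In the authors' deposited table the p-values of these probes were 1.79e-05 for Fkbp4, 1.44e-05 for Zbtb16 and 0.0143 for Per3. The probes nearest to the fold threshold in that table were those of Homer3, a postsynaptic scaffold, with a mean JFLX value of 0.40, and Sox18, a transcription factor, with -0.40. Just outside, the nearest unlisted probes with p at most 0.05 had mean JFLX values of 0.3995 and -0.3984. Fkbp4 lay close to the threshold, as the 17th of the 260 listed lower probes counted from it, and Per3 was the 76th. Zbtb16 was the 220th of the 322 listed higher probes.

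Fkbp4, the receptor co-chaperone, was lower on every JFLX array. On the deposited log2 scale, where every probe has a control median of 0, JFLX replicates 1 to 4 had -0.41, -0.44, -0.37 and -0.47, against 0.06, -0.06, -0.02 and 0.02 in control replicates 1 to 4. The JFLX arrays lay within 0.10 of each other and the groups were separated by a gap of 0.31. The means were -0.42 ± 0.04 in JFLX and 0.00090 ± 0.055 in control (SD, n = 4 each), a difference of -0.42 ± 0.08 (moderated SE), so that the JFLX mean was 74.6% of the control mean. The pooled SD within groups was 0.049 for Fkbp4, against a median of 0.27 over all probes, and 0.335% of all probes had a smaller one. This spread entered the p-value that the members were chosen by. Its difference was modest for its list, since 30 of the 260 listed lower probes had a smaller one.

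Zbtb16, the glucocorticoid-induced transcription factor, was higher on every JFLX array. JFLX replicates 1 to 4 had log2 values of 0.57, 0.70, 0.77 and 0.71, against 0.08, -0.05, 0.04 and -0.04 in control replicates 1 to 4. The lowest JFLX array stood 0.49 above the highest control array. The means were 0.69 ± 0.09 in JFLX and 0.0075 ± 0.063 in control (SD, n = 4 each), a difference of 0.68 ± 0.09 (moderated SE) or 1.60-fold. Its SD within groups was also small, with 2.30% of all probes below it, and its difference ranked 107th of the 322 listed higher probes. In whole tissue, a difference in the number of cells of a type and a difference in RNA per cell cannot be told apart.

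Per3, the clock gene, had lower values on the JFLX arrays, but none of these arrays was flagged as detecting it. JFLX replicates 1 to 4 had log2 values of -0.84, -0.25, -0.58 and -0.28, against -0.05, 0.05, -0.06 and 0.08 in control replicates 1 to 4. The groups did not overlap, and the gap between them, 0.18, was smaller than the range of 0.59 over the JFLX arrays. The SD was 0.28 in JFLX and 0.074 in control (n = 4 each), a ratio of 3.76, whereas the same ratio was 0.756 for Fkbp4 and 1.38 for Zbtb16. The mean JFLX value was -0.49, and without JFLX replicate 1, which lay lowest, it was -0.37, short of the authors' threshold. The probe has only a bound in JFLX. When the control signal was set against the lowest detected JFLX signals, the bound came to under 1, so no fold is given for Per3.

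**Figure D1:**
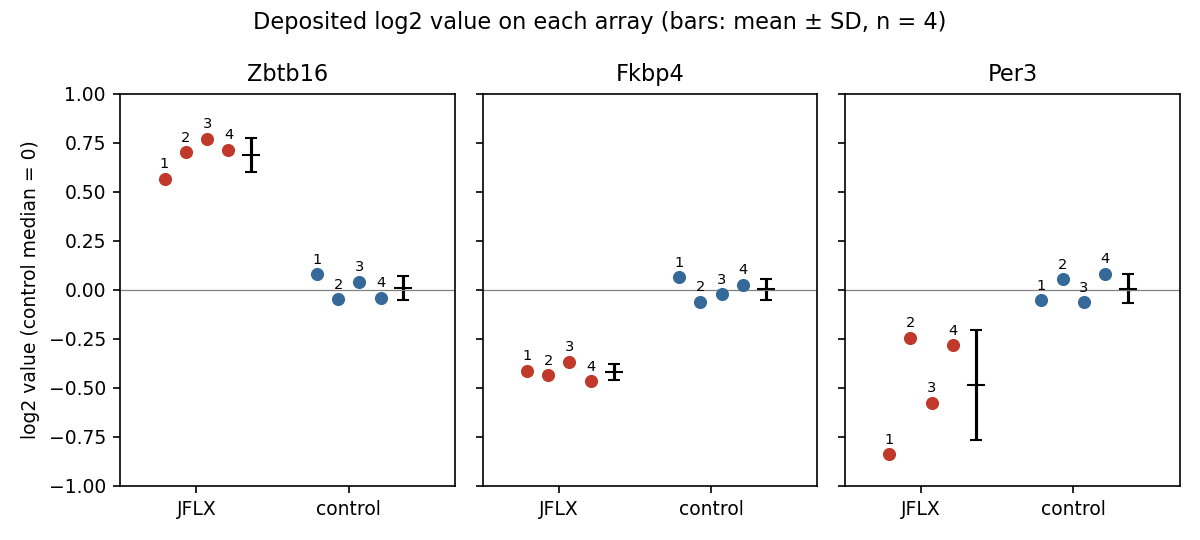
Deposited log2 value (vertical axis, with the control median at 0) of Zbtb16, Fkbp4 and Per3 on each array, JFLX left and control right. Points carry the replicate number and bars are the mean ± SD of 4 arrays. The JFLX points of Zbtb16 run from 0.57 to 0.77 and those of Fkbp4 from -0.47 to -0.37, while those of Per3 spread from -0.84 to -0.25.

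The background-subtracted intensities, given on a linear scale before normalization between arrays, show how bright each probe was. The labels of the intensity columns name the group and not the numbered sample, but the values follow the order of the replicates. In that order, differences between the member probes in log2 intensity keep the same offset to the deposited differences on every array. Fkbp4 had intensities of 980, 932, 1073 and 533 on the JFLX arrays, against 1361, 1406, 1115 and 1307 on the control arrays. The highest JFLX intensity thus lay below the lowest control intensity. Fkbp4 was brighter than 93.8% of the listed probes and was flagged as detected on all 4 arrays of both groups.

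Zbtb16 had intensities of 213, 226, 260 and 133 on the JFLX arrays, against 151, 156, 128 and 137 on the control arrays. Before normalization the groups overlapped, because 1 JFLX array, at 133, lay among the control arrays. That array was JFLX replicate 4 by the order of the columns. Its median intensity over the listed probes, 32.5, was the lowest of all. The other 3 JFLX arrays had 57.3 to 63.5 and the control arrays 36.7 to 51.0. JFLX replicate 4 was also the dimmest JFLX array for Fkbp4 and for Per3. Zbtb16 was brighter than 78.0% of the listed probes and was flagged as detected on all 8 arrays.

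Per3 was a dim probe, brighter than 18.6% of the listed probes. Its intensities were 7.97, 11.6, 10.1 and 6.61 on the JFLX arrays, against 13.7, 16.6, 11.8 and 14.8 on the control arrays. The lowest intensities that were flagged as detected differed between the groups. Among listed probes detected on every array of a group, the lowest intensity ran from 9.06 to 19.1 over the 4 JFLX arrays, against 5.11 to 6.97 over the 4 control arrays. The brightest listed probe detected on no JFLX array reached 7.04 to 19.99 on those arrays. On 3 of the 4 JFLX arrays Per3 was brighter than all 4 of the lowest detected control intensities, and yet was not flagged. The 4 control intensities of Per3 all exceeded the lowest of the 4 JFLX levels, 9.06, and 0 of them reached the highest, 19.1. These levels were read from listed probes only. The lowest detected intensities of listed probes were thus higher on the JFLX arrays, where Per3 was not flagged. Listing itself required detection in the JFLX or the control group, which shapes these levels. Their part in the Per3 result was not tested. Among the 260 listed lower probes, 117 were detected on 0 JFLX arrays, and 88 of those were detected on all 4 control arrays as Per3 was.

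**Figure D2:**
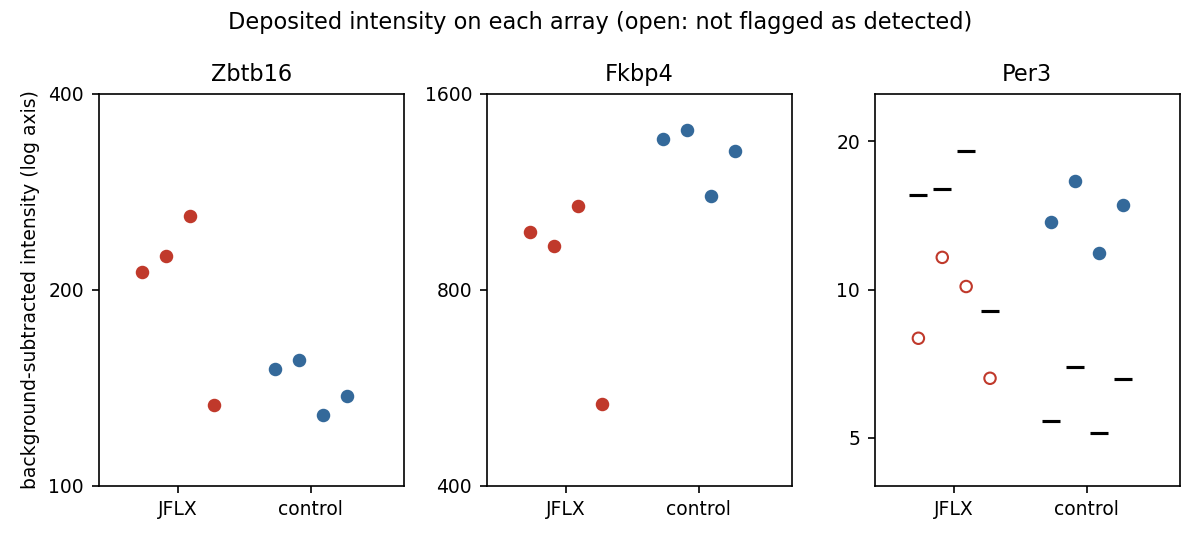
Background-subtracted intensity (vertical axis, log scale, a different range in each panel) on each of the 4 JFLX arrays (left) and 4 control arrays (right). Open points mark Per3 in JFLX, flagged as detected on 0 arrays, and black dashes give, for the array of the same column, the lowest intensity among listed probes detected on all 4 arrays of the group. The JFLX dashes lie at 9.06 to 19.1 and the control dashes at 5.11 to 6.97.

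Set against the whole array, Zbtb16 and Fkbp4 do not stand at the extremes of the difference. On the log2 scale 12.1% of all probes had a larger positive difference than Zbtb16 and 5.49% a more negative one than Fkbp4. Per3 is given no rank over all probes, since it was detected on 0 JFLX arrays. The median difference was 0.04 over all probes, 0.57 over the listed higher probes and -0.59 over the listed lower probes. Groups did not overlap at all 3 members and at 13.0% of all probes, 10.0% in the higher and 2.95% in the lower direction. By limma (a linear model with moderated variances, Benjamini-Hochberg adjusted p at most 0.05 over all 15207 probes), 2 of the 3 members passed, Zbtb16 and Fkbp4, where 6.25% of all probes passed, 5.89% higher and 0.355% lower. Over 15 other settings Zbtb16 passed in 14 and Fkbp4 in 6. The Fkbp4 call was lost when control replicate 1, 3 or 4 or JFLX replicate 1, 2 or 3 was left out (limma adjusted p from 0.0510 to 0.0787). Fkbp4 did not pass with a replicate block or with trend and robust moderation (limma adjusted p = 0.166 and 0.167), and neither passed with quantile normalization (adjusted p = 0.099 for Zbtb16 and 0.122 for Fkbp4), where 0 of all probes did by limma, with 1298 at an unadjusted p under 0.05. Quantile normalization gives all arrays the same spread, while the JFLX values spread more widely before it, so the fall to 0 is partly built in. Nothing is read from these counts, since the members were selected on the same contrast.

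**Figure D3:**
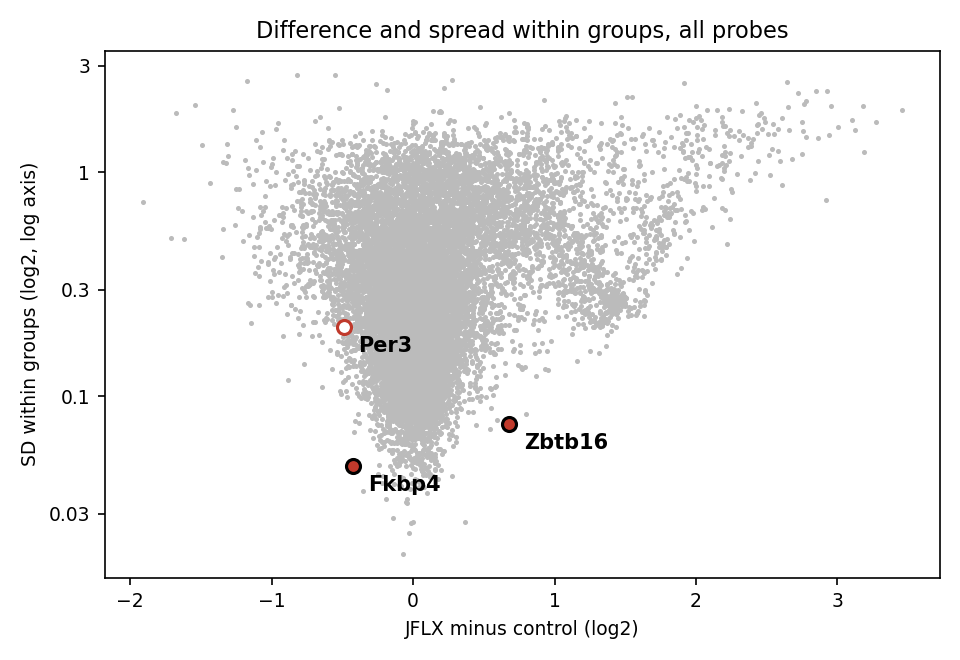
Difference between JFLX and control (horizontal axis, log2) against the pooled SD within groups (vertical axis, log2 units on a log scale) for all 15207 probes in grey. Zbtb16 and Fkbp4 lie at the lower edge of the cloud, with pooled SDs of 0.075 and 0.049, and Per3, at 0.20, lies inside it. Per3 is drawn open because it was detected on 0 JFLX arrays, so its horizontal position is a measured difference and not a fold.

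The sizes of these differences depended on the scaling of the arrays, while their directions were the same under every scaling tried. Centring each array on its 75th percentile moved the difference of all probes by -0.19 in the median. Zbtb16 then stood at 0.48 and Fkbp4 at -0.62. With quantile normalization Zbtb16 stood at 0.43, against 0.68 in the deposited values, and Fkbp4 at -0.39, which is short of the authors' threshold. Both scalings were run on values already centred at each probe on the control median. On that scale the SD over all probes was 0.64 to 0.74 on JFLX arrays, against 0.35 to 0.52 on control arrays. Taking the control median as the reference by itself narrows the control spread, so part of this contrast is built in. The 75th percentile was 0.27 to 0.44, against 0.10 to 0.16. Centring makes that percentile alike and quantile normalization the whole distribution, so these moves are partly built in. On the log2 intensities Zbtb16 stood at 0.50 and Fkbp4 at -0.60, because the difference in log2 intensity minus the deposited difference was -0.18 at every listed probe. All 8 arrays were on 1 slide with the groups in separate position blocks, per the read-me sheet, so position and treatment cannot be told apart.

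**Figure D4:**
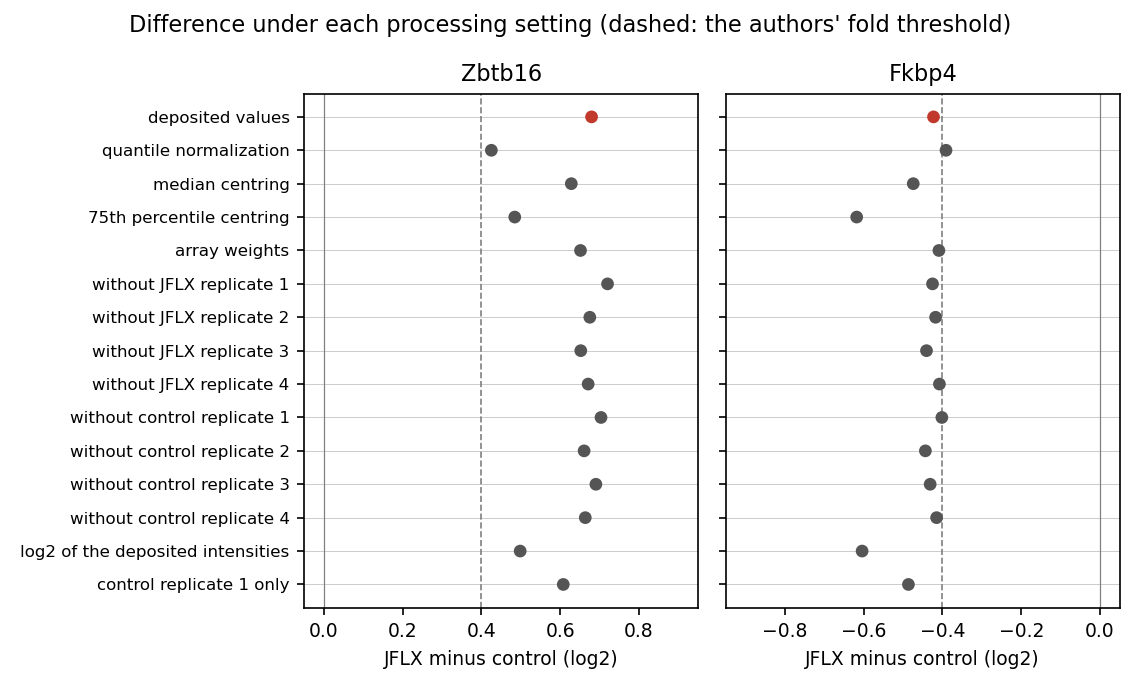
Difference between JFLX and control (horizontal axis, log2) of Zbtb16 and Fkbp4 under each setting, with the deposited values in red and the authors' fold threshold dashed. Zbtb16 ran from 0.43 to 0.72 and Fkbp4 from -0.62 to -0.39, neither crossing 0.

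The deviations of the arrays from their own group mean are a measure that the selection by group means did not use. Over the 8 arrays, the deviations of Fkbp4 and Zbtb16 had a Pearson correlation of 0.37, those of Zbtb16 and Per3 of 0.34, and those of Fkbp4 and Per3 of -0.39. These are descriptions over arrays that share a slide, and 1 array could decide them: without JFLX replicate 1, which is low for both genes, the value for Zbtb16 and Per3 was -0.76. For Fkbp4 and Per3 it ran from -0.59 to -0.24 when each array was left out in turn, but turned to 0.14 with quantile normalization. For Zbtb16 and Fkbp4 it was positive in each of these settings, from 0.14 without control replicate 1 to 0.68 with 75th percentile centring. All 3 correlations are weak for 8 arrays, and nothing is read from them.

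Among the other named probes, the pattern of Fkbp4 over the 8 arrays was most like those of Incenp (Pearson r = 0.97), Pla2g12a (0.97), Pex2 (0.96) and Rab3ip (0.96). All 4 are in the lower list and were detected on all 8 arrays. For Zbtb16 the nearest were Phyhip (r = 0.99), Nudt3 (0.99), Zfp799 (0.98) and Adam11 (0.98), all in the higher list and detected on all 8 arrays. For Per3 they were Klk7 (r = 0.95), Zfp143 (0.94), Tfr2 (0.94) and Atp6v0d2 (0.94), all in the lower list. Of these 4, Klk7 was detected on 1 JFLX array and the other 3 on 0 JFLX arrays, as were 117 of the 260 listed lower probes. These likenesses include the difference between the groups, which all listed probes were selected for.

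On the deviations from the group means alone, the genes nearest to Fkbp4 were Arhgdia (r = 0.83), Or9i1b (0.81), Usp33 (0.79) and Usp28 (0.78). The first 3 of these are in the higher list, opposite to Fkbp4, and were detected on all 8 arrays. Usp28 was detected on 0 JFLX and 3 control arrays. For Zbtb16 they were Cpeb2 (0.90), Nrp1 (0.88), Zfp799 (0.88) and Egfem1 (0.83), all in the higher list. For Per3 they included Klk7 (0.90), Zfp143 (0.89) and Wdtc1 (0.83), of which Wdtc1 is in the higher list. Per3 itself and Zfp143 were detected on 0 JFLX arrays and Klk7 on 1. Zfp799 was thus among the 4 nearest to Zbtb16, and Klk7 and Zfp143 among the 4 nearest to Per3, by both measures. The values over the arrays contain these deviations, so the measures are not independent and such recurrence is partly built in. The correlations are also the highest among all other named genes, over 8 arrays only, and nothing is read from them.

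The related genes were looked up in 6 lists of 161 genes in all, of which 7 had a listed probe. Of all 15207 probes, 582 were listed. Unlisted probes carry no name here, so the number of these genes with any probe is not known. Of the 30 genes of the glucocorticoid receptor and its chaperones, Fkbp4 alone was listed, so 1 was lower and 0 higher. Of 36 glucocorticoid-induced transcripts Zbtb16 alone was listed, and of 28 clock genes Per3 alone. The receptor itself, Fkbp5, Per1 and the other members have no listed probe with a name here, so their values were not analysed here. Listed genes were selected on these samples and are not independent evidence of a direction.

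Among 27 genes of the hypothalamic-pituitary-adrenal axis and stress peptides, 2 were listed. Adcyap1r1, the receptor of the stress peptide PACAP, had log2 values of 0.56, 0.89, 0.36 and 0.72 in JFLX replicates 1 to 4, against -0.01, 0.01, 0.18 and -0.19 in control replicates 1 to 4. Its groups did not overlap, and its difference of 0.64 ± 0.14 (moderated SE) passed by limma (adjusted p = 0.0384), but in 3 of 15 other settings only (adjusted p from 0.0281 to 0.610). It moved less evenly than Zbtb16, with JFLX replicate 3 nearest to the control arrays. Avpr1a, a vasopressin receptor, was detected on 0 JFLX and 4 control arrays, as Per3 was, with log2 values of -1.17 to -0.40 in JFLX, against -0.40 to 0.15 in control. Its groups overlapped and it did not pass (limma adjusted p = 0.202). Over this list 1 gene passed higher and 0 lower, against 5.89% and 0.355% of all probes.

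Among 25 immunophilins, Fkbp4 and Fkbp6 were listed, both lower. Fkbp6, which in mice is needed for male meiosis, was detected on 0 JFLX and 3 control arrays and its groups overlapped, at -0.87 to -0.38 in JFLX, against -0.46 to 0.48 in control (limma adjusted p = 0.223). Of this list Fkbp4 alone passed, 1 lower and 0 higher, where 0.355% of all probes passed lower, and the Fkbp4 call was lost in 9 of 15 other settings. Among 25 BTB zinc finger factors and their cullin-3 or corepressor partners, Zbtb16 and Zbtb18 were listed. Both passed higher, where 5.89% of all probes did, and both were named here because the authors listed them as higher. Zbtb18, a transcriptional repressor needed for cortical neuron development and listed under its older name Zfp238, had log2 values of 0.34, 0.50, 0.50 and 0.35 in JFLX replicates 1 to 4, against 0.06, 0.05, -0.05 and -0.17 in control replicates 1 to 4. Its groups did not overlap, and its difference was 0.45 ± 0.10 (limma adjusted p = 0.0367), which passed in 3 of 15 other settings (adjusted p from 0.0132 to 0.456). The median of the pair was 0.57.

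**Figure D5:**
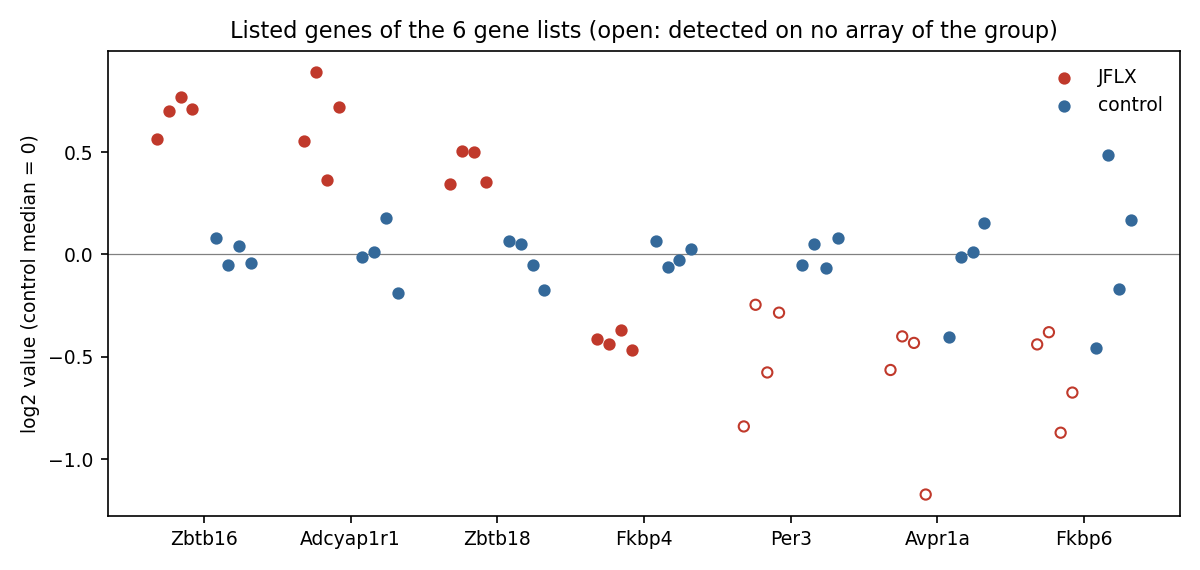
Deposited log2 value (vertical axis, control median at 0) of the 7 listed genes of the 6 gene lists on each of the 4 JFLX (red, left of each pair) and 4 control (blue) arrays. Open points mark groups in which the gene was detected on 0 arrays. The 3 higher genes and Fkbp4 are detected in both groups and do not overlap, while Per3, Avpr1a and Fkbp6 are detected on 0 JFLX arrays and only Per3 of these does not overlap.

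Markers of the cell types of cortex were looked up in the same way, and 7 of 50 markers had a listed probe, in 6 of 8 lists. Of all 15207 probes, 582 were listed. For neurons, Camk2a had intensities of 1015 to 3052 in JFLX, against 1474 to 2304 in control, and Neurod2 had 1912 to 3154 in JFLX, against 3269 to 4214 in control, so both neuronal markers were bright in every sample. Their log2 differences had opposite signs, at 0.56 for Camk2a and -0.46 for Neurod2, and neither passed (limma adjusted p = 0.172 and 0.160). Glul, the glutamine synthetase of astrocytes and 1 of 8 astrocyte markers, was in the lower list, for which Fkbp4 was selected too. Glul had intensities of 783 to 1216 in JFLX, against 1352 to 1864 in control. Its log2 difference of -0.51 ± 0.11 passed (limma adjusted p = 0.0362), and did so in 5 of 15 other settings (adjusted p from 0.0137 to 0.291). The interneuron marker Kcnc1 stood at 0.50 and the endothelial marker Pecam1 at 0.68, neither past the limma threshold (adjusted p = 0.0895 and 0.227). Lum and the platelet gene Ppbp were dim, at 2.41 to 9.48 and 6.28 to 10.0 in JFLX, against 10.2 to 15.7 and 12.2 to 19.9 in control, and both were detected on 0 JFLX arrays. Ppbp passed in the lower direction (limma adjusted p = 0.0370), in 5 of 15 other settings too (adjusted p from 0.0137 to 0.393), and Lum did not pass (adjusted p = 0.114). No listed marker of oligodendrocytes or microglia was found, so those lists give no value. The part of cell composition in the differences of Fkbp4, Zbtb16 and Per3 was not tested.

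Of the promoters in the RefSeq table (build GRCr8, 250 bases before to 50 after the start), those of Fkbp4 and Per3 were found. Both strands were searched for the glucocorticoid response element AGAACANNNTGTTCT, its half-site AGAACA, the core of the heat-shock element GAANNTTC, the E-box CACGTG of clock genes and the D-box TTATGTAA. The half-site is contained in the full element. Neither promoter held the full element, the half-site, the E-box or the D-box in this window. Most promoters lacked each of them, since 0.0149%, 20.7%, 6.42% and 0.893% of the 33469 promoters of this length held a match. Zbtb16 had no promoter entry and was not searched. Fkbp4 held 1 match to the heat-shock core, which occurs in 8.59% of promoters, starting 137 bases before the transcription start. Its promoter, at chr4:163397869-163398168 on the minus strand, is shown because Fkbp4 belongs to the Hsp90 machinery that heat-shock factors are known to drive, and the capitals mark that match.
Fkbp4 promoter: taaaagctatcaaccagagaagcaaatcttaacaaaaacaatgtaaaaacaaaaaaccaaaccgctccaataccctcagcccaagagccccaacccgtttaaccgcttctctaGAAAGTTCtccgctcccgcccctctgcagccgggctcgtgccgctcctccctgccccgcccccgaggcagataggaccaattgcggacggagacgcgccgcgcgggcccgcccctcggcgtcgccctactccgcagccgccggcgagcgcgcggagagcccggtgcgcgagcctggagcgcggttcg
A match is a description of the letters and not a bound site, and these arrays hold no measurement of a factor at either promoter.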

How the data were processed

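Total RNA (500 ng per sample) was labelled with Cy3 by the Agilent Quick-Amp kit, per the labels' protocols. The authors deposited log2 values for 15207 probes, normalized by a method not given in the sources used here and centred so that the control median is 0 at each probe, with 0 missing. Their lists of 322 higher and 260 lower probes give background-subtracted intensity, p-value, log2 group means and counts of arrays flagged as detected, per the file headers. The labels of the intensity columns (C2, JF1 and the like) name groups only, though their values follow the order of the replicates. In each list, 16 further per-array columns were not used. Unlisted probes carry no gene name here. Of the listed probes, 551 were named through their gene ID in RefSeq's table of GRCr8 and 31 by the file.

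Differences are JFLX minus control means. All probes were fitted with limma 3.58.1 in R 4.3.3 (two-sided, Benjamini-Hochberg over all probes, checked on simulated data). The p-values set the group difference against the spread between samples within groups, which may be technical. They cannot tell treatment from position on the slide, and the number of arrays limits the precision. Members and lists were chosen with earlier results of these data known. Named genes are the members, listed genes of the fixed lists, the 4 genes per member with the highest Pearson correlation by each of 2 measures, and the listed genes nearest to the fold threshold; 1 gene that this rule takes is not reported here. Marker genes were named from lists fixed in the same way. Tables and plots used Python 3.11.15, pandas 2.3.3 and matplotlib 3.10.9. Alternatives were other scalings, array weights, trend and robust moderation, a replicate block, an equal-variance test, raw intensities and leaving out each array; a filter on dim probes needs flags for unlisted probes and was not run.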

Additional observations from a re-analysis of the deposited data

How the results depend on the processing

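None of the 3 members changed direction in any setting run, but trend, the t-test and the replicate block cannot change a difference. Zbtb16 (0.68) stood at 0.43 with quantile normalization, 0.48 with 75th percentile centring and 0.50 on log2 intensities, and from 0.65 to 0.72 when each array was left out. Fkbp4 (-0.42) stood at -0.47 with median centring, -0.62 with 75th percentile centring, -0.60 on log2 intensities, -0.49 against control replicate 1 alone (added after seeing the data) and from -0.44 to -0.40 when each array was left out. The measured Per3 difference, which is no fold, ran from -0.57 to -0.37 when each array was left out. The limma count of 950 probes (896 higher, 54 lower) was 0, 0 and 0 with quantile normalization, with 1298 at an unadjusted p under 0.05, 929 higher and 369 lower. That setting gives the wider JFLX arrays the same spread as the control arrays, so the fall is partly built in. The lower count was 221 with 75th percentile centring, 113 with array weights, 21 with the replicate block and 0 with trend and robust (369 at an unadjusted p under 0.05). Leaving out each array gave 780 to 907 probes, 742 to 875 higher and 19 to 62 lower, and the lower count was 23 when JFLX replicate 1 was dropped and 32, 19 and 35 when control replicate 2, 3 or 4 was. Of the 7 listed genes, 4 passed in the main setting, 0 with quantile normalization (5 at an unadjusted p under 0.05), 1 with trend and robust, 1 with the replicate block and 1 to 3 when each array was left out. Over these 15 other settings Zbtb16 passed in 14, Fkbp4 in 6 and Per3 in 1, that with 75th percentile centring. Same-numbered samples share only a number, with correlations of deviations from -0.28 to 0.40, and 2 of 4 JFLX samples correlated best with their own number. Probes without overlap numbered 1174 with quantile normalization, 1995 with median centring and 2860 with 75th percentile centring, against 1973. Correlations of deviations moved to 0.61 and 0.68 for Zbtb16 and Fkbp4 with median and 75th percentile centring, to -0.12, 0.22 and 0.17 for Zbtb16 and Per3 with quantile, median and 75th percentile settings, and to 0.14 and -0.27 for Fkbp4 and Per3 with quantile and 75th percentile settings. When each array was left out they ran from 0.14 to 0.66, from -0.76 to 0.53 and from -0.59 to -0.24 for these pairs. The cause of these moves was not tested. Signal over background limits Per3, Avpr1a and Fkbp6, which were detected on 0 JFLX arrays.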
